A study of Arabidopsis thaliana with 12 samples.

Results

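Transcript levels of seedlings labelled irr were compared with those of wild type after 24 h with the peptide AtPep1. The comparison used 6 of the 12 libraries of the study, 3 per genotype, and kept genes that reached 1 FPKM in 3 or more of those 6, which were 17485 of the 32846 genes in the table. FPKM is a fragment count divided by gene length and by the size of the library. All plants were Arabidopsis thaliana of the accession Columbia 0. The groups were wild type with 1 µM AtPep1, irr (labelled rrm/irr) with 1 µM AtPep1, and the same genotypes with water, which the labels of the samples call untreated. Each library came from a pool of whole seedlings, about 15 to a well of liquid medium in constant light. A single irr line was used, with no other allele and no complemented line among the groups, so the mutation and any other difference between the lines cannot be told apart. The labels do not say whether the replicates were separate cultures, so a p-value refers to the scatter of these samples only, part of which may be technical.

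Pep1 is a peptide cut from a precursor protein when plant cells are damaged. The receptor kinases PEPR1 and PEPR2 bind it at the cell surface and start the same cascade as microbial patterns do, with calcium influx, an oxidative burst, protein kinase activity and the expression of defence genes, among them those for tryptophan-derived compounds such as camalexin and indole glucosinolates. IRR, in published work, is an RNA-binding protein that acts on splicing and restrains this response. The comparison asked which transcripts differ between the genotypes while the peptide is present.

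The locus known for IRR, AT3G23900, was looked at first. It stood at 10.7, 12.7 and 11.3 FPKM in wild type and at 11.9, 10.8 and 11 FPKM in irr, and these ranges overlapped. Its difference, irr minus wild type, was -0.04 ± 0.11 on the log2(FPKM + 1) scale (± SE, limma adjusted p = 0.882), so its level does not check the genotype labels, and every direction given here rests on them. CPK28 (AT5G66210), a kinase that curbs signalling from immune receptors and is described in published work as a splicing target of IRR, stood at 13.6, 13.1 and 11.9 FPKM in wild type and at 26, 27.8 and 15.4 FPKM in irr. All 3 irr values lay above those of wild type, but the difference of 0.75 ± 0.18 was not called (limma adjusted p = 0.0597). Splice forms cannot be seen in values summed per gene.

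The libraries were not equally alike. Between the 3 wild-type libraries Spearman's rho across genes lay between 0.983 and 0.988, and between the 3 irr libraries between 0.955 and 0.972. These are correlations over genes, which are no replicates of each other. On the first principal component, which held 59.0% of the variance, the wild-type libraries stood between -30.4 and -23.7, and irr replicates 1, 2 and 3 stood at 25.5, 54.5 and -2.08. The irr replicate 3 was therefore the nearest to wild type, and replicate 2 the farthest. Within a genotype the typical (median) SD of a gene, in log2 units, was 0.184 in irr and 0.119 in wild type. The spacing of low FPKM values gave totals of 17424325 to 21354518 for these 6 libraries, at which a count of 1 on 1 kb of gene equals 0.0468 to 0.0574 FPKM. The sources do not say if reads or fragments were counted, and some totals exceed the number of raw reads that the labels give. These totals bear on counting error only, since PCR copies are included. LHCB1.3 (AT1G29930), a chlorophyll-binding protein gene of green tissue, stood at 23852 FPKM or more in each of the 6, and of the 8 flower and seed markers PI (AT5G20240) alone passed the filter on low values.

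**Figure D1:**
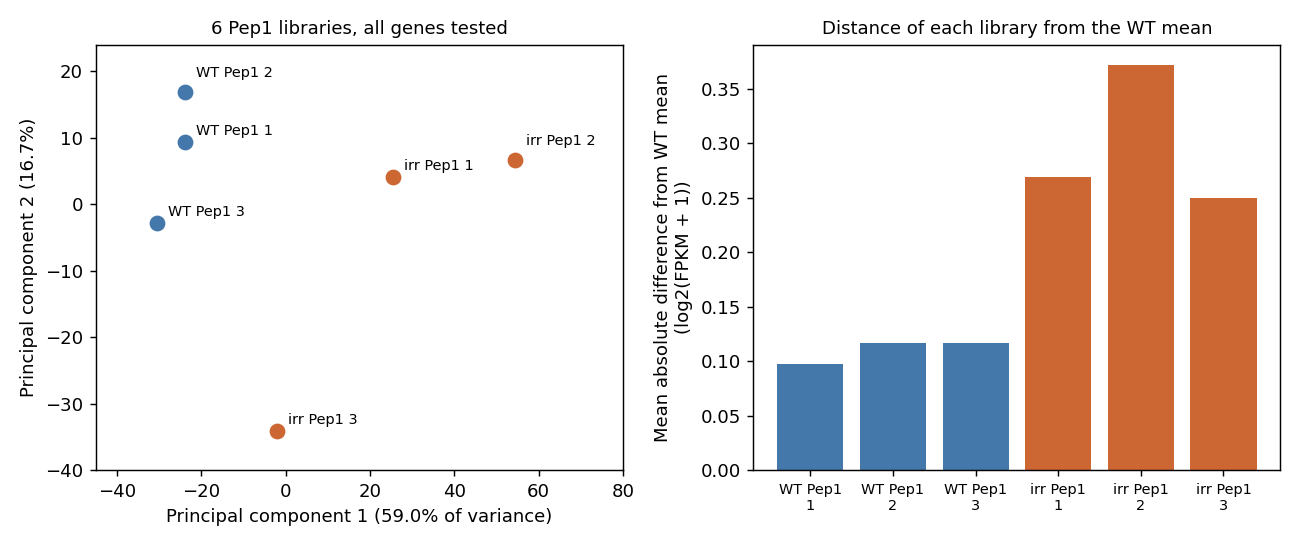
Left, the 6 Pep1 libraries on the first and second principal components of log2(FPKM + 1) over all 17485 genes tested. Right, the mean absolute difference of each library from the mean of the 3 wild-type libraries, which includes the library itself for wild type, on the log2(FPKM + 1) scale. Wild type is blue and irr orange; the irr bars stand at 0.270, 0.372 and 0.250 and the wild-type bars between 0.0978 and 0.117.

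With Pep1, 291 of the 17485 genes tested (1.66%) differed between the genotypes at an adjusted p under 0.05 (limma, Benjamini-Hochberg over all genes tested). Of these, 215 (1.23%) were higher and 76 (0.435%) lower in irr. The counts of called genes in each list and family below stand beside these shares. A difference of at least 1 on the log2 scale was reached by 165 of the higher genes (0.944% of genes tested) and by 25 of the lower genes (0.143%). Differences are given throughout as irr minus wild type on the log2(FPKM + 1) scale with the SE after ±. This scale shrinks the change of genes with low values. A gene that reached 1 FPKM in the 3 libraries of 1 genotype alone was bound to be higher in that genotype, without overlap of the groups. The filter thus fixed the direction of genes such as STP9, AT4G01980, MYB122, FMO1, HAI1, CML37, HRGP1, AT3G09925 and the root hair genes tested. In 1809 genes (10.3%) all 3 irr values lay above all 3 wild-type values, and in 2261 (12.9%) all lay below. The median difference over all genes tested was -0.03. Of the 17485 differences 7772 lay above 0, beside which the counts above 0 in the lists below stand. An unadjusted p under 0.05 was reached by 3113 genes (17.8%), the share beside which such counts in the lists below are given.

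The count of called genes depended on single libraries. Without wild-type Pep1 replicates 1, 2 and 3 it was 45, 41 and 25. Those called higher were then 33 (0.189%), 33 (0.189%) and 19 (0.109%), and those lower 12 (0.0686%), 8 (0.0458%) and 6 (0.0343%). Without irr Pep1 replicates 1 and 2 it was 37 and 34, with 27 (0.154%) higher in either fit and 10 (0.0572%) and 7 (0.04%) lower. Without irr Pep1 replicate 3 it was 1601, of which 1304 (7.46%) were higher and 297 (1.7%) lower, and all 291 genes were among them. The water libraries take part because all groups share the spread estimate, and leaving out WT water replicate 1 gave 144 calls and irr water replicate 1 gave 166. Without WT water replicates 1, 2 and 3 the share of genes called higher was 0.612%, 0.875% and 0.858% and lower 0.212%, 0.383% and 0.275%. Without irr water replicates 1, 2 and 3 it was 0.732%, 1.6% and 1.17% higher and 0.217%, 0.406% and 0.395% lower. Among the 215 higher genes, irr replicate 2 had the highest of the 3 irr values in 169 and replicate 3 the lowest in 183. Among the 76 lower genes replicate 3 had the highest value in 38. A fit of these 6 libraries alone called 22 genes, 21 of them among the 291. Below, the number of the 12 fits that each leave out 1 library in which a gene was still called is given as a count of 12.

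**Figure D2:**
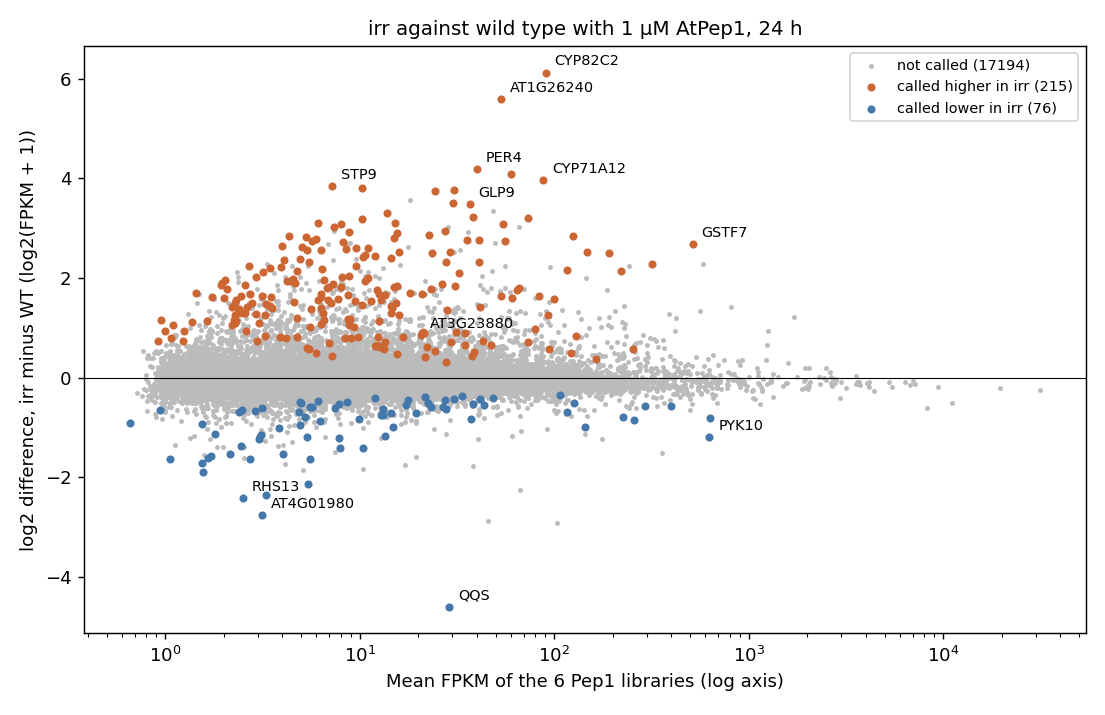
Difference between irr and wild type with Pep1 (y axis, log2 scale) against the mean FPKM of the 6 libraries (x axis, log scale) for the 17485 genes tested, with the 215 called higher in orange and the 76 called lower in blue. CYP82C2 stands at the top and QQS at the bottom; most called genes have a mean under 100 FPKM.

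A small set of genes was called under every alternative setting in which they were tested. Groups without overlap are not particular to this set, since 10.3% of genes tested lay wholly above wild type and 12.9% wholly below. STP9 (AT1G50310), a sugar transporter of the plasma membrane, stood at 0.151, 0 and 0.0739 FPKM in wild type and at 15.1, 14.7 and 13.5 FPKM in irr. It was close to 0 in wild type and alike in the 3 irr libraries, with a difference of 3.84 ± 0.16 (adjusted p = 5.44e-07). QQS (AT3G30720), an orphan gene known to act on starch content, showed the opposite pattern, at 32.3, 71.1 and 66.2 FPKM in wild type and at 1.04, 1.16 and 1.60 FPKM in irr. The genotypes lay far apart in every library (-4.59 ± 0.29, adjusted p = 2.87e-05). AT4G01980, whose product is uncharacterized, stood at 3.76, 8.29 and 6.76 FPKM in wild type and at 0.0612, 0 and 0.0608 FPKM in irr. It was at or near 0 in irr (-2.75 ± 0.21, adjusted p = 0.000131). STP9 passed the filter through irr alone and AT4G01980 through wild type alone, so the filter itself fixed the direction of both.

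Others of this set differed less in size. AT2G04620, a zinc transporter-like gene, stood at 0.899, 0.967 and 1.15 FPKM in wild type and at 5.38, 5.86 and 4.61 FPKM in irr (1.65 ± 0.12, adjusted p = 0.0001). ASPGB1 (AT3G16150), whose product belongs to the N-terminal nucleophile aminohydrolases, stood at 27.9, 29.0 and 28.5 FPKM in wild type and at 94.3, 126 and 79.3 FPKM in irr (1.75 ± 0.19, adjusted p = 0.00281). In neither gene did the groups come near each other. AT1G51270, named after a vesicle-associated protein, and AT3G01175, uncharacterized, were higher by 1.41 ± 0.18 and 1.49 ± 0.17. The genes AT3G23880, of the F-box family, and BAM1 (AT3G23920), a beta-amylase that breaks down starch, lie close to AT3G23900. AT3G23880 stood at 15.1, 13.4 and 14.9 FPKM in wild type and at 25.4, 28.2 and 27.5 FPKM in irr (0.86 ± 0.09, adjusted p = 0.00162), and BAM1 at 22.5, 20.8 and 22.5 FPKM in wild type and at 38.3, 35.7 and 36.5 FPKM in irr (0.72 ± 0.10, adjusted p = 0.00752). Both were higher in irr in all 3 libraries. In the order of genes tested each lies 2 places from AT3G23900, AT3G23880 before it and BAM1 after it. No other gene among the 10 on either side was called, which makes 2 of 20 beside the 1.66% of all genes tested. This window was chosen after the values were seen.

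In all, 14 genes were called under every one of the 22 alternative settings in which they were tested. Of these, 12 were higher, namely STP9, BAM1, AT3G23880, AT1G51270, AT3G01175, AT2G04620, ASPGB1, F6'H1 (AT3G13610), GLP4 (AT1G18970), GLP9 (AT4G14630), AT5G59680 and AT1G26240, and 2 were lower, QQS and AT4G01980. AT5G59680, a leucine-rich repeat kinase gene, stood at 2.55, 2.31 and 2.61 FPKM in wild type and at 14.2, 13.8 and 8.55 FPKM in irr and AT1G26240 is described with the extensins below. Of the 14, 13 were also called in the water libraries, ASPGB1 being the exception.

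**Figure D3:**
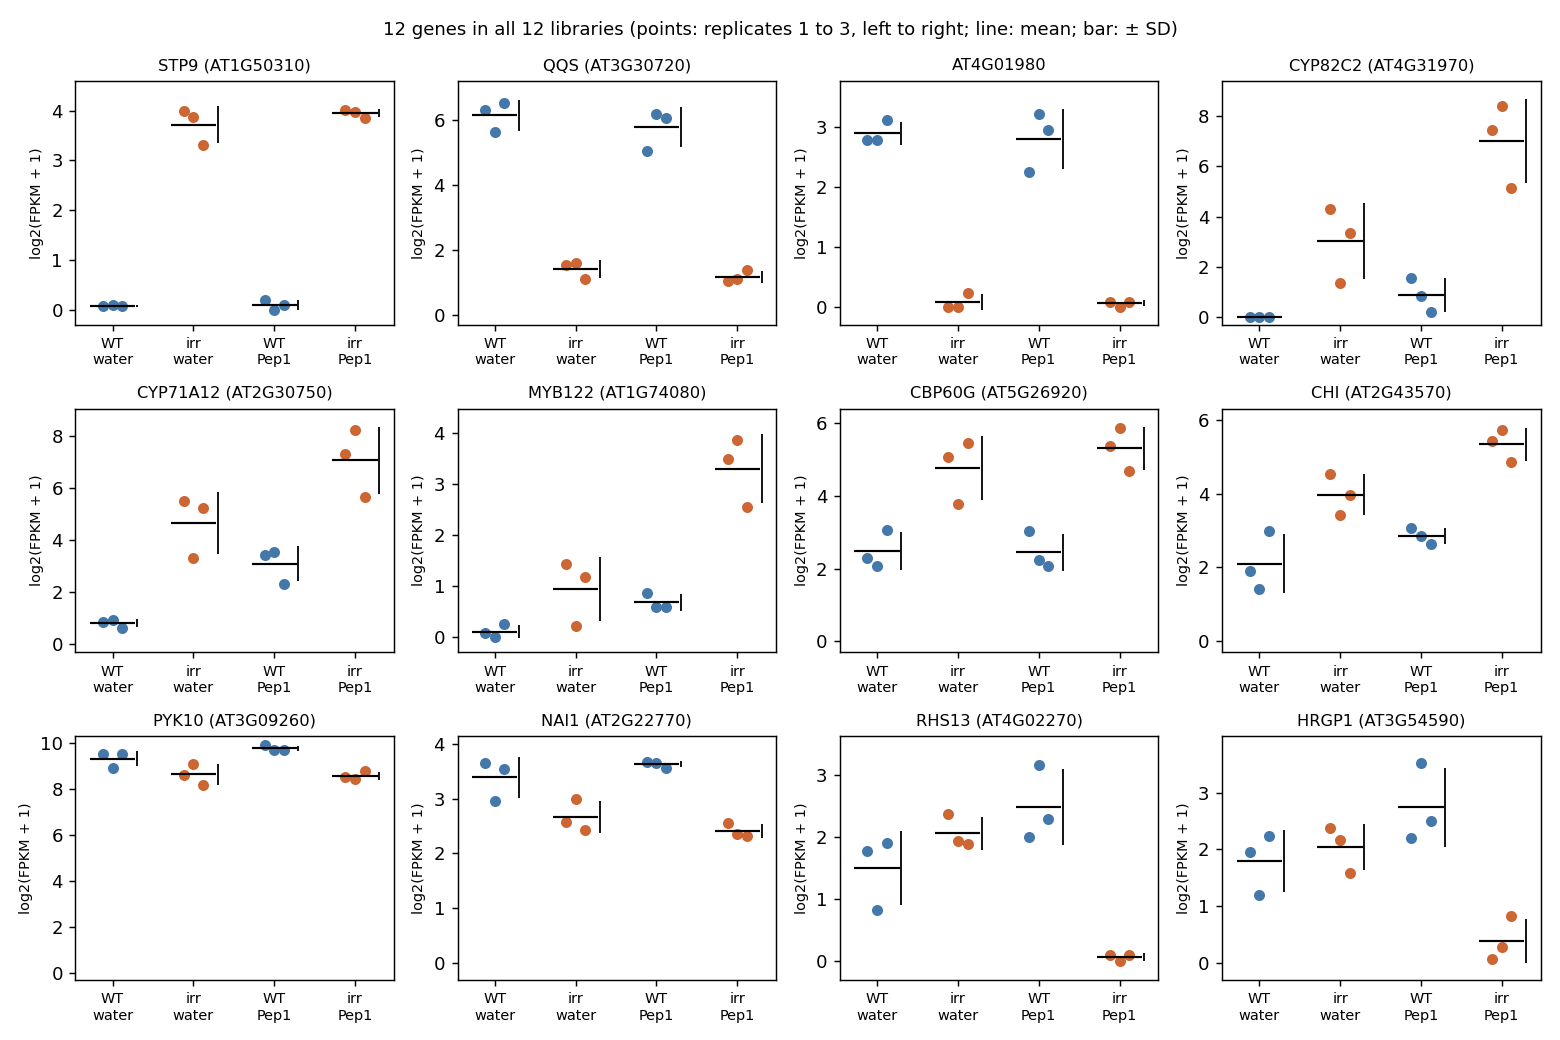
Levels of 12 genes, log2(FPKM + 1), in the 12 libraries by group, wild type in blue and irr in orange, with points for replicates 1 to 3 from left to right, a line for the mean and a bar for ± SD. STP9, QQS and AT4G01980 separate the genotypes with both treatments, while RHS13 and HRGP1 are low in irr with Pep1 and higher in each other group.

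The genes of camalexin and indole glucosinolate synthesis held the most calls of the 29 lists. Of 23 tested, 7 were higher and 0 lower in irr, 22 had a difference above 0 and the list median was 1.73. In 17 the irr values lay above all wild-type values, beside 10.3% of all genes tested. CYP82C2 (AT4G31970), a cytochrome P450 that adds a hydroxyl group to a cyanogenic indole compound, had the largest difference among the 291 called genes, at 1.94, 0.804 and 0.146 FPKM in wild type and at 174, 332 and 34.1 FPKM in irr. Wild type stayed below 2 FPKM while the 3 irr libraries lay between 34.1 and 332 FPKM (6.12 ± 0.80, adjusted p = 0.00698, 12 of 12). CYP71A12 (AT2G30750), a cytochrome P450 of camalexin synthesis, stood at 9.92, 10.6 and 3.98 FPKM in wild type and at 156, 298 and 49.8 FPKM in irr (3.96 ± 0.64, adjusted p = 0.0161, 7 of 12), and the berberine-type oxidase AT1G26380 at 3.66, 5.67 and 3.04 FPKM in wild type and at 105, 219.6 and 24.8 FPKM in irr (4.08 ± 0.70, adjusted p = 0.0196, 7 of 12). In both, replicate 2 was the highest and replicate 3 the lowest of the irr libraries, yet replicate 3 still lay above wild type.

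At the head of the pathway, CYP79B2 (AT4G39950), which turns tryptophan into its oxime, stood at 12.1, 12.1 and 7.86 FPKM in wild type and at 96.6, 270.1 and 43.1 FPKM in irr (3.2 ± 0.67, adjusted p = 0.0397, 3 of 12). Its close relative CYP79B3 (AT2G22330) stood at 15.1, 10.6 and 11.5 FPKM in wild type and at 29.0, 53.4 and 21.3 FPKM in irr and missed the threshold (1.32 ± 0.35, adjusted p = 0.0820). MYB122 (AT1G74080), a transcription factor of indole glucosinolate genes, stood at 0.816, 0.497 and 0.5 FPKM in wild type and at 10.3, 13.5 and 4.82 FPKM in irr (2.62 ± 0.34, adjusted p = 0.00696, 12 of 12). It was the member whose call depended least on single libraries, together with CYP82C2. However, MYB122 passed the filter through irr alone, which fixed its direction and set its groups apart. The list counts above include it. The related factors MYB51 (AT1G18570) (1.79 ± 0.52, adjusted p = 0.104) and MYB34 (AT5G60890) (-0.35 ± 0.25, adjusted p = 0.493) did not pass.

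The remaining called members change the indole ring. CYP81F2 (AT5G57220) hydroxylates it, at 10.4, 8.90 and 6.36 FPKM in wild type and at 95.1, 180.3 and 27.7 FPKM in irr, and IGMT2 (AT1G21120) methylates it, at 12.8, 11.9 and 9.47 FPKM in wild type and at 109, 163 and 29.7 FPKM in irr. Their differences were 3.08 ± 0.64 (adjusted p = 0.0390, 3 of 12) and 2.74 ± 0.60 (adjusted p = 0.0481, 2 of 12). Outside the list IGMT3 (AT1G21110), the neighbouring copy, was higher by 2.76 ± 0.55. Reads of such close copies may be divided uncertainly between them, which also holds for CYP71A12 and CYP71A13 (AT2G30770), the latter below the filter with at most 1.64 FPKM. PAD3 (AT3G26830), the enzyme of the final camalexin step, stood at 6.01, 6.22 and 3.94 FPKM in wild type and at 14.0, 13.3 and 3.16 FPKM in irr. Its groups overlapped, since irr replicate 3 was the lowest of all 6 libraries (0.61 ± 0.39, adjusted p = 0.441). NAC042 (AT2G43000), a transcription factor known to regulate camalexin genes, lies outside the list and stood at 1.65, 2.33 and 1.04 FPKM in wild type and at 19.5, 26.9 and 5.95 FPKM in irr (2.60 ± 0.46, adjusted p = 0.0216). The list held 22 calls without irr Pep1 replicate 3, and 2 without each of the other 5 Pep1 libraries. It held 4 without each WT water library and without irr water replicate 1, and 9 and 6 without irr water replicates 2 and 3. The 7 aliphatic glucosinolate genes tested held 0 calls (1 without irr water replicate 2 and without irr Pep1 replicate 3), with a median of -0.09.

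**Figure D4:**
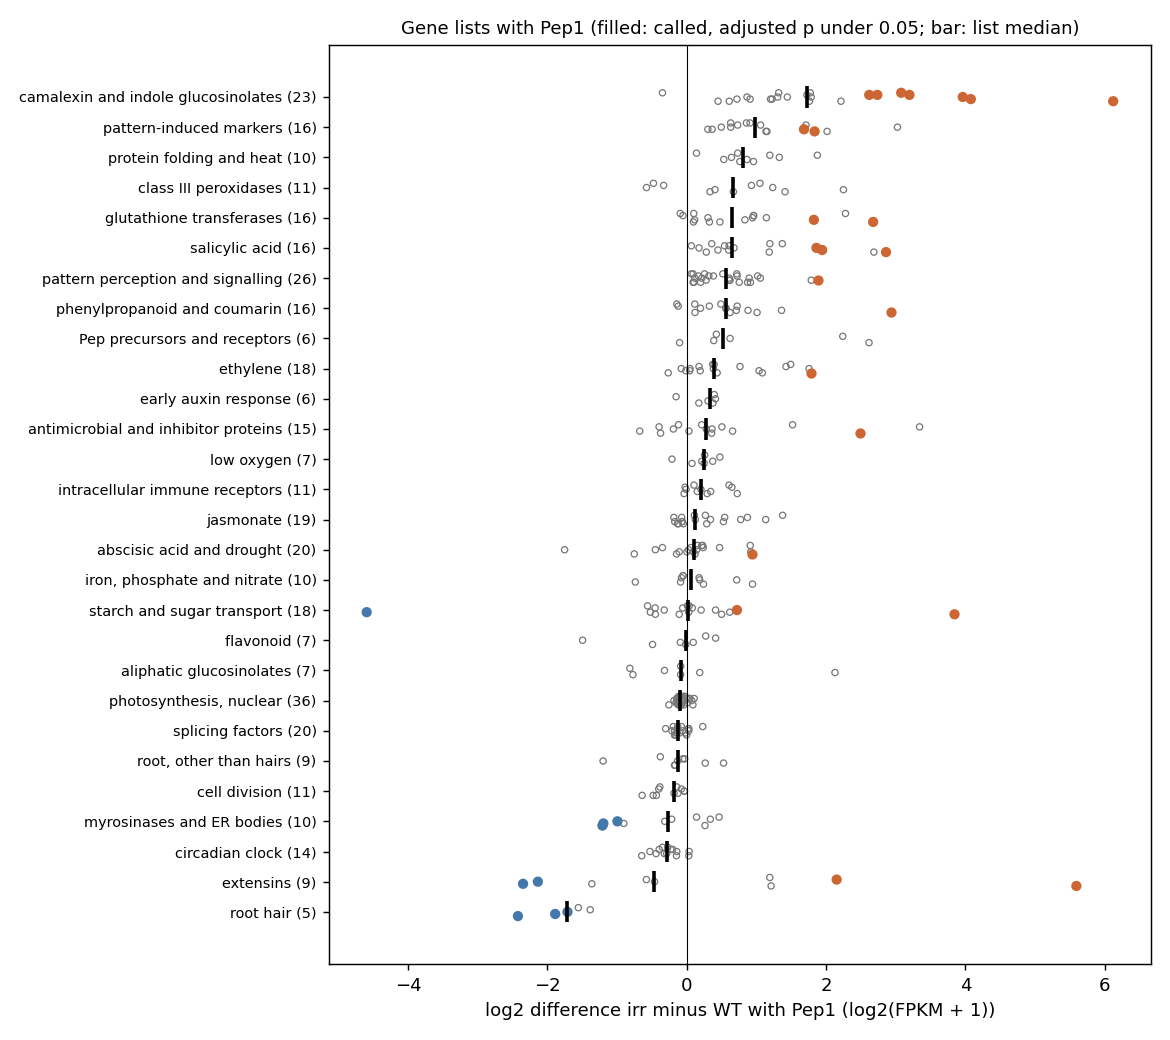
Difference between irr and wild type with Pep1 on the log2 scale for the genes tested in each list with at least 4 of them, sorted by list median (bar), with called genes filled (orange higher, blue lower) and the number tested in brackets. The camalexin and indole list stands at the top, at 1.73, and the root hair list at the bottom, at -1.71. The 5 root hair genes passed the filter through wild type alone, which fixed the sign of that median.

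Among genes that perceive patterns and pass on the signal, 1 of 26 was called higher and 0 lower, with all 26 differences above 0 and a median of 0.56. The called gene was PUB23 (AT2G35930), a ubiquitin ligase that dampens the response, at 9.34, 9.86 and 9.15 FPKM in wild type and at 34.3, 76.4 and 19.8 FPKM in irr. Its irr values all lay above wild type (1.88 ± 0.38, adjusted p = 0.0349, 5 of 12). The list held 14 calls without irr Pep1 replicate 3 and 0 without each of the other 5 Pep1 libraries, WT water replicate 1 and irr water replicate 1. It held 2 without irr water replicate 2. Of the 6 genes tested for Pep precursors and their receptors 0 were called (2 at an unadjusted p under 0.05). PROPEP3 (AT5G64905), a precursor, stood at 4.72, 2.49 and 2.01 FPKM in wild type and at 20.6, 69.0 and 8.19 FPKM in irr, and PEPR1 (AT1G73080), the Pep1 receptor, at 7.34, 7.56 and 6.41 FPKM in wild type and at 9.78, 13.2 and 6.77 FPKM in irr. PROPEP3 was higher in every irr library than in wild type without passing (2.62 ± 0.70, adjusted p = 0.0814), and PEPR1 overlapped between genotypes (0.39 ± 0.18, adjusted p = 0.296). The list held 4 calls without irr Pep1 replicate 3 and 1 without irr water replicate 2. The precursor of Pep1 itself, PROPEP1 (AT5G64900), stood at 2.18, 2.04 and 1.67 FPKM in wild type and at 3.99, 6.89 and 1.39 FPKM in irr, with irr replicate 3 below all wild-type values.

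Of 16 markers induced by microbial patterns 2 were called higher, both zinc finger transcription factors of stress responses, and all 16 differences were above 0 (median 0.98). ZAT10 (AT1G27730) stood at 14.1, 11.6 and 9.17 FPKM in wild type and at 42.3, 87.0 and 22.2 FPKM in irr (1.84 ± 0.41, adjusted p = 0.0499, 2 of 12) and ZAT12 (AT5G59820) at 9.30, 9.17 and 8.58 FPKM in wild type and at 34.5, 44.3 and 19.6 FPKM in irr (1.68 ± 0.33, adjusted p = 0.0344, 5 of 12). In both genes the irr replicate 3 was nearest to wild type but above it. FRK1 (AT2G19190), a receptor kinase gene often used as a marker of immunity, stood at 2.84, 2.85 and 3.34 FPKM in wild type and at 13.6, 131 and 17 FPKM in irr, and it was not called (3.03 ± 0.77, adjusted p = 0.0716). WRKY33 (AT2G38470), a transcription factor of camalexin genes, was at 1.71 ± 0.39 (adjusted p = 0.0544). The count was 10 without irr Pep1 replicate 3, 1 without irr Pep1 replicate 1 and 0 without the other Pep1 libraries. It was 0 without WT water replicate 1 and irr water replicate 1, 1 without WT water replicates 2 and 3, and 4 without irr water replicate 2.

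Salicylic acid genes had 3 of 16 called higher, 0 lower, all 16 above 0 and a median of 0.64. These counts include FMO1, which passed the filter through irr alone, so that its direction was fixed. CBP60G (AT5G26920), a calmodulin-binding regulator of salicylic acid synthesis, stood at 7.18, 3.71 and 3.18 FPKM in wild type and at 40.5, 57.1 and 24.6 FPKM in irr (2.86 ± 0.44, adjusted p = 0.0144, 8 of 12). The transcription factor WRKY70 (AT3G56400) stood at 1.14, 1.19 and 0.723 FPKM in wild type and at 12.4, 3.96 and 5.92 FPKM in irr (1.94 ± 0.40, adjusted p = 0.0383), and FMO1 (AT1G19250), which makes the mobile signal N-hydroxypipecolic acid, at 0.268, 0.241 and 0.132 FPKM in wild type and at 4.71, 1.65 and 4.66 FPKM in irr (1.86 ± 0.31, adjusted p = 0.0177). The 3 genes did not share an order of libraries: irr replicate 2 was the highest for CBP60G and the lowest for the other two. The count was 10 without irr Pep1 replicate 3, 0 without irr Pep1 replicate 1 and without WT Pep1 replicates 2 and 3, and 1 without irr Pep1 replicate 2 and WT Pep1 replicate 1.

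Among 18 ethylene genes ERF6 (AT4G17490), a transcription factor of the ethylene response, was the 1 called higher, at 9.82, 9.03 and 7.70 FPKM in wild type and at 35.4, 61.1 and 16.3 FPKM in irr (1.79 ± 0.40, adjusted p = 0.0497, 3 of 12; list median 0.39). It was called in the fits without irr water replicate 2, irr water replicate 3 and irr Pep1 replicate 3, and in the last of these 6 genes of the list were called. The 19 jasmonate genes held 0 calls (4 at an unadjusted p under 0.05, beside 17.8% of all genes, median 0.12), and the 11 intracellular immune receptor genes held 0 calls (3 at an unadjusted p under 0.05). Without irr Pep1 replicate 3 these lists held 4 and 2 calls. The jasmonate enzyme gene AOC2 (AT3G25770) stood at 45.1, 45.6 and 38.1 FPKM in wild type and at 49.1, 44.7 and 31.0 FPKM in irr, where the groups overlapped.

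Of 15 antimicrobial and inhibitor genes the chitinase gene CHI (AT2G43570) was called, at 7.34, 6.21 and 5.20 FPKM in wild type and at 41.8, 52.4 and 28.1 FPKM in irr (2.49 ± 0.38, adjusted p = 0.0144, 8 of 12; list median 0.28). Of 16 phenylpropanoid and coumarin genes the call was F6'H1, which makes the coumarin scopoletin's precursor, at 6.67, 3.73 and 5.38 FPKM in wild type and at 65.8, 56.4 and 25.9 FPKM in irr (2.93 ± 0.40, adjusted p = 0.00764, 12 of 12; list median 0.56). Both genes were clearly apart between genotypes, with irr replicate 3 the lowest of irr. Without that library 8 phenylpropanoid and coumarin genes were called, and 1 in each of the other 11 fits. The antimicrobial count was 2 without irr water replicate 2 and 0 without WT Pep1 replicates 2 and 3 and irr Pep1 replicates 1 and 2. CCOAMT (AT1G67980), a caffeoyl-CoA methyltransferase gene outside the list, stood at 3.43, 10.2 and 4.98 FPKM in wild type and at 73.8, 111 and 28.1 FPKM in irr (3.22 ± 0.50, adjusted p = 0.0144).

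Of 16 glutathione transferase genes 2 were called higher. GSTF7 (AT1G02920), an abundant transcript, stood at 145, 141 and 86.6 FPKM in wild type and at 889, 1469 and 362 FPKM in irr (2.68 ± 0.57, adjusted p = 0.0407, 3 of 12), and its reads may be shared with the close copy GSTF6. GSTU10 (AT1G74590) stood at 6.39, 6.51 and 4.62 FPKM in wild type and at 29.8, 29.1 and 13.9 FPKM in irr (1.83 ± 0.34, adjusted p = 0.0249). For each, the irr libraries lay above wild type. The count was 7 without irr Pep1 replicate 3, 0 without the other Pep1 libraries, 3 without irr water replicate 2 and 1 without each WT water library. The 11 listed class III peroxidases held 0 calls, with 4 at an unadjusted p under 0.05. They held 4 calls without irr Pep1 replicate 3 and 1 without irr water replicate 2. Peroxidase genes outside the list were called in both directions and were not counted as a family. RHS19 and AT1G30870, described with the root hair genes below, were lower in irr, and the following genes were higher. PER4 (AT1G14540) stood at 2.54, 1.3 and 1.60 FPKM in wild type and at 59.2, 163 and 11.9 FPKM in irr (4.19 ± 0.83, adjusted p = 0.0342, 5 of 12) and AT3G03670 at 1.28, 3.55 and 1.57 FPKM in wild type and at 33.7, 39.7 and 11.2 FPKM in irr (3.11 ± 0.42, adjusted p = 0.00746, 12 of 12). The second of these was called whichever library was left out.

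Some families were looked at after the values were seen, by their product names, so their counts describe the calls and no more. Beside them, 1.23% of all genes tested were called higher and 0.435% lower. Germin-like proteins are secreted cupin proteins of the cell wall, and 2 of 10 tested were called, GLP9 at 5.95, 5.26 and 3.65 FPKM in wild type and at 96.2, 68.2 and 41.6 FPKM in irr (3.49 ± 0.42, adjusted p = 0.00528) and GLP4 at 1.27, 1.63 and 0.709 FPKM in wild type and at 25.5, 17.8 and 14.5 FPKM in irr (3.19 ± 0.33, adjusted p = 0.00184). Both were called in all 12 fits. Of 89 calmodulin and EF-hand genes, whose products bind calcium, 9 were higher and 0 lower. AT5G39670 stood at 4.27, 1.96 and 2.07 FPKM in wild type and at 37.5, 33.1 and 14.3 FPKM in irr (2.91 ± 0.45) and CML37 (AT5G42380) at 0.592, 0.466 and 0.435 FPKM in wild type and at 8.22, 8.35 and 2.80 FPKM in irr (2.2 ± 0.43). The calmodulin gene CAM2 (AT2G41110) differed less, at 22.9, 24.1 and 23.3 FPKM in wild type and at 40.9, 63.7 and 33.9 FPKM in irr (0.90 ± 0.19). The calcium family held 34 calls without irr Pep1 replicate 3, and 1 or 0 without the other Pep1 libraries. It held 3 without WT water replicate 1. CML37 passed the filter through irr alone, which fixed its direction.

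Of 11 cyclic nucleotide-gated channel genes, which encode cation channels, 3 were higher, CNGC3 (AT2G46430), CNGC10 (AT1G01340) and CNGC13 (AT4G01010), by 1.21 ± 0.25, 1.18 ± 0.22 and 1.17 ± 0.24. CNGC10 stood at 4.95, 4.75 and 5.23 FPKM in wild type and at 15.4, 15.1 and 8.42 FPKM in irr. None of these was called when any Pep1 library other than irr replicate 3 was left out. Of 63 disease resistance genes of the TIR type 6 were higher, with AT1G57630 at 1.89, 0.913 and 0.663 FPKM in wild type and at 14.2, 25.8 and 5.54 FPKM in irr (2.73 ± 0.46) and AT5G41750 at 1.06, 0.855 and 0.466 FPKM in wild type and at 11.9, 11.2 and 4.09 FPKM in irr (2.39 ± 0.43). In these too irr replicate 3 was the lowest of irr and above wild type. Of 19 berberine bridge enzyme genes 4 were higher, among them the neighbours AT1G26410 and AT1G26420 (3.09 ± 0.48 and 2.40 ± 0.53). Of 41 WRKY genes 4 were higher, WRKY70, WRKY72 (AT5G15130), WRKY31 (AT4G22070) and WRKY59 (AT2G21900). Without irr Pep1 replicate 3 the TIR, berberine and WRKY counts were 19, 7 and 11. Without each of the other 5 Pep1 libraries the TIR count was 0, and the berberine and WRKY counts were 1 or 0. Without single water libraries they ran from 3 to 7, 2 to 5 and 2 to 5. The secretion genes SYP122 (AT3G52400), a plasma membrane syntaxin, and EXO70B2 (AT1G07000), an exocyst subunit, stood at 23.0, 22.9 and 26.1 FPKM in wild type and at 75.4, 126 and 47.7 FPKM in irr and at 8.28, 9.34 and 8.08 FPKM in wild type and at 20.9, 35.1 and 14.2 FPKM in irr (1.64 ± 0.28 and 1.26 ± 0.25). RBOHA (AT5G07390), an NADPH oxidase gene, was higher by 1.31 ± 0.24.

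Further genes higher in irr include the membrane-raft gene FLOT1 (AT5G25250) and its neighbour AT5G25260. FLOT1 stood at 3.85, 3.38 and 2.17 FPKM in wild type and at 52.9, 104 and 16.4 FPKM in irr (3.5 ± 0.53, adjusted p = 0.0144, 9 of 12) and AT5G25260 at 1.89, 1.55 and 0.898 FPKM in wild type and at 17.7, 110.0 and 15.1 FPKM in irr (3.74 ± 0.75, adjusted p = 0.0344). These are close copies as well. AT2G23270 and AT1G53625, both uncharacterized, were higher by 3.81 ± 0.57 and 3.77 ± 0.66. AT1G58320, of the PLAC8 family, stood at 2.51, 0.825 and 0.899 FPKM in wild type and at 37.7, 7.83 and 33.4 FPKM in irr (3.3 ± 0.65, adjusted p = 0.0335), and here irr replicate 2 was the lowest.

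Cell wall genes went both ways. Of 9 extensin genes tested, which encode structural glycoproteins of the wall, 2 were higher and 2 lower, with a median of -0.46. AT1G26240 stood at 1.08, 0.623 and 0.639 FPKM in wild type and at 111, 175 and 30.5 FPKM in irr (5.59 ± 0.56, adjusted p = 0.00147) and its neighbour AT1G26250 at 34.2, 46.7 and 40.8 FPKM in wild type and at 201, 255 and 118 FPKM in irr (2.15 ± 0.26, adjusted p = 0.00528). Both were called in all 12 fits. The adjacent pair AT3G54580 and HRGP1 (AT3G54590) was lower, at 6.13, 13.5 and 8.72 FPKM in wild type and at 0.665, 1.39 and 1.98 FPKM in irr for the first and at 3.62, 10.4 and 4.62 FPKM in wild type and at 0.0514, 0.209 and 0.767 FPKM in irr for HRGP1. The differences were -2.14 ± 0.37 and -2.35 ± 0.37 (adjusted p = 0.0197 and 0.0144). Each was called in 8 of 12 fits, and neither without WT Pep1 replicates 2 and 3 or irr Pep1 replicates 1 and 2. HRGP1 passed the filter through wild type alone, which fixed its direction. Neighbouring extensin genes are similar in sequence, so the division of reads within each pair is uncertain.

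Of 17 root hair genes listed, 3 were called lower in irr with Pep1 (0.435% of all genes tested were), 2 were tested and not called, and 12 stayed below the filter on low values. The 5 tested reached 1 FPKM in the 3 wild-type libraries alone, so the filter itself fixed that they were lower in irr, and nothing is read from their count. RHS13 (AT4G02270), a root-hair-specific cell wall protein gene, stood at 3.01, 8.03 and 3.91 FPKM in wild type and at 0.0743, 0 and 0.0739 FPKM in irr, with irr at or near 0 (-2.42 ± 0.32, adjusted p = 0.00736, 12 of 12). RHS19 (AT5G67400), of the peroxidase family, stood at 1.69, 5.06 and 2.54 FPKM in wild type and at 0, 0.0463 and 0.0908 FPKM in irr, and PRP3 (AT3G62680), a wall protein gene of root hairs, at 1.24, 4.89 and 2.74 FPKM in wild type and at 0, 0.0962 and 0.283 FPKM in irr. Their differences were -1.89 ± 0.34 (adjusted p = 0.0227, 8 of 12) and -1.71 ± 0.34 (adjusted p = 0.0342, 6 of 12). In all 3 genes wild-type replicate 2 was the highest, and the filter itself set the groups apart. The expansin gene EXP7 (AT1G12560) and XTH14 (AT4G25820), a xyloglucan-modifying enzyme gene, had lower values in irr without passing (-1.39 ± 0.36 and -1.55 ± 0.42, adjusted p = 0.0737 and 0.0838).

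Summed over the 17 root hair genes, the level was 2.31 to 3.33 FPKM in irr with Pep1 and 14.0 to 40.3 FPKM in wild type with Pep1. With water it was 14.9 to 25.7 FPKM in irr and 4.71 to 20.3 FPKM in wild type, and 0 of the 17 genes were at 0 in all 12 libraries. The 3 irr libraries with Pep1 were the lowest of all 12. This is a description only, since the sum includes the 5 tested genes whose direction the filter fixed. In such bulk samples fewer root hair cells and less RNA per cell cannot be told apart. The 11 markers of other root tissue summed to 106 to 138 FPKM in irr and 111 to 182 FPKM in wild type with Pep1, which overlapped, and of 9 tested 0 were called (2 at an unadjusted p under 0.05; 1 lower without irr water replicate 2, 1 higher and 1 lower without irr Pep1 replicate 3; median -0.13). Lower in irr as well were AT3G09925, of the Ole e 1 and extensin family, at 3.09, 4.70 and 3.34 FPKM in wild type and at 0.754, 0.766 and 0.321 FPKM in irr (-1.54 ± 0.31, adjusted p = 0.0344), and the peroxidase gene AT1G30870 (-1.60 ± 0.35, adjusted p = 0.0477). The count of root hair genes called lower was 3 without WT Pep1 replicate 1, 1 without each of WT Pep1 replicates 2 and 3 and irr Pep1 replicates 1 and 2, and 4 without irr Pep1 replicate 3.

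Genes of the ER body, a compartment of the endoplasmic reticulum that stores beta-glucosidases, were among those lower in irr. Of 10 myrosinase and ER body genes tested 3 were called lower and 0 higher, with a median of -0.27. PYK10 (AT3G09260), the main beta-glucosidase of these bodies, stood at 966, 829 and 833 FPKM in wild type and at 363, 345 and 441 FPKM in irr (-1.20 ± 0.22, adjusted p = 0.0249, 7 of 12). NAI1 (AT2G22770), the transcription factor needed for ER bodies, stood at 11.7, 11.5 and 10.8 FPKM in wild type and at 4.91, 4.12 and 3.99 FPKM in irr (-1.21 ± 0.19, adjusted p = 0.0144, 8 of 12), and NAI2 (AT3G15950), a protein needed for their formation, at 201, 175 and 199.6 FPKM in wild type and at 93.0, 76.1 and 124 FPKM in irr (-0.99 ± 0.18, adjusted p = 0.0217, 7 of 12). The irr replicate 3 was the highest of irr for PYK10 and NAI2 and the lowest for NAI1.

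Genes outside the list that belong to the same system were seen among the calls afterwards. PBP1 (AT3G16420), a lectin that binds PYK10, stood at 861, 774 and 774 FPKM in wild type and at 480.3, 418 and 482 FPKM in irr (-0.80 ± 0.15, adjusted p = 0.0254), and MEB1 (AT4G27860), a membrane protein of ER bodies, at 14.6, 12.4 and 11.9 FPKM in wild type and at 6.86, 6.68 and 6.87 FPKM in irr (-0.83 ± 0.14, adjusted p = 0.0196). In both, the genotypes did not overlap. The other listed genes split: the myrosinases TGG1 (AT5G26000) and TGG2 (AT5G25980) were at 0.34 ± 0.17 and 0.47 ± 0.50, and the beta-glucosidases BGLU21 (AT1G66270) and BGLU22 (AT1G66280) at -0.90 ± 0.55 and -0.31 ± 0.38, none of them called. The list count was 3 without irr Pep1 replicate 3, 1 without irr Pep1 replicate 1, and 0 without irr Pep1 replicate 2 and each WT Pep1 library.

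Among the other genes lower in irr, CYP87A2 (AT1G12740), a cytochrome P450, stood at 5.73, 2.78 and 5.48 FPKM in wild type and at 0.733, 0.447 and 1.25 FPKM in irr (-1.62 ± 0.23, adjusted p = 0.00917, 11 of 12). AT5G47950, of an acyltransferase family, stood at 9.39, 8.03 and 9.01 FPKM in wild type and at 1.61, 1.79 and 3.39 FPKM in irr (-1.63 ± 0.21, adjusted p = 0.00675, 12 of 12). Lipid enzymes by product name were AT3G23510, a cyclopropane fatty acid synthase, at -1.42 ± 0.25, and AT3G02620, a stearoyl carrier protein desaturase, at -1.38 ± 0.22. The methyltransferase gene AT4G33120 and SDR4 (AT3G29250), of the Rossmann-fold family, were at -1.54 ± 0.31 and -1.42 ± 0.28. The cytokinin response regulators RR3 (AT2G41310) and ARR4 (AT1G10470) were lower too. RR3 stood at 9.32, 6.27 and 9.82 FPKM in wild type and at 4.48, 3.71 and 4.09 FPKM in irr (-0.87 ± 0.16, adjusted p = 0.0224), and ARR4 at 30.3, 25.2 and 28.9 FPKM in wild type and at 22.3, 15.3 and 17.8 FPKM in irr (-0.59 ± 0.13, adjusted p = 0.0499, 2 of 12). Of 12 response regulator genes tested, a family chosen after the values were seen, 2 were lower and 0 higher, with 0 to 3 lower when 1 library was left out.

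The starch and sugar list had STP9 and BAM1 called higher and QQS lower among 18, and these calls were kept in all 12 fits. Without irr Pep1 replicate 3 the list had 4 genes called lower. Among 20 abscisic acid genes HAI1 (AT5G59220), a protein phosphatase of that pathway, was the 1 called higher, at 0.545, 0.420 and 0.668 FPKM in wild type and at 1.64, 2.18 and 2.03 FPKM in irr (0.93 ± 0.17, adjusted p = 0.0235, 7 of 12). Its level was low in all 6 libraries. HAI1 passed the filter through irr alone, which fixed its direction and set the groups apart. The 36 nuclear photosynthesis genes held 0 calls by limma and 0 at an unadjusted p under 0.05 (median -0.09). Beside the 17.8% of all genes at such a p, 0 were called of 20 splicing factor genes (3 at an unadjusted p under 0.05, median -0.13), of 14 clock genes (7, median -0.28), of 11 cell division genes (3, median -0.18) and of 10 iron, phosphate and nitrate genes (1, median 0.06). The 7 flavonoid genes (1, median -0.01), 7 low-oxygen genes (2, median 0.25) and 6 early auxin genes (1, median 0.34) held 0 calls as well. Without irr Pep1 replicate 3, 1 gene was called in each of the iron, flavonoid, low-oxygen and auxin lists. Of 10 protein folding genes 0 were called, although 7 had an unadjusted p under 0.05, beside 17.8% of all genes, and all 10 differences were above 0 (median 0.81). The chaperone gene BIP1 (AT5G28540) stood at 42.6, 51.5 and 38.2 FPKM in wild type and at 79.7, 191 and 41.6 FPKM in irr. Its irr replicate 3 lay within the range of wild type, and without that library 8 of the 10 genes were called higher, and 1 without irr water replicate 3.

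The water libraries showed which differences were also present without the peptide. They share no library with the comparison above, but both come from 1 fit and share its estimate of the spread. With water 706 of the 17485 genes (4.04%) were called, 535 higher (3.06%) and 171 lower (0.978%). That count was 44, 95 and 330 without WT water replicates 1, 2 and 3, and 132 and 67 without irr water replicates 1 and 3. It was 355, 452 and 421 without WT Pep1 replicates 1, 2 and 3, and 1396 and 1300 without irr Pep1 replicates 2 and 3. Of the 215 genes higher with Pep1, 208 also had a difference above 0 with water, where 55.0% of all genes tested had one, and 105 were called there, which is 48.8% of the 215 and 19.6% of the 535. Of the 76 lower genes 63 had a difference below 0 with water and 21 were called, which is 27.6% of the 76 and 12.3% of the 171. No gene was called in opposite directions. The median difference of the higher genes was 1.62 with Pep1 and 1.23 with water, and that of the lower genes -0.75 and -0.36. Since the genes were chosen for their difference with Pep1, the smaller values with water are a description.

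STP9 stood at 0.0450, 0.0739 and 0.0543 FPKM in wild type and at 15.0, 13.5 and 8.86 FPKM in irr with water, and QQS at 77.7, 47.9 and 90.5 FPKM in wild type and at 1.88, 2.04 and 1.15 FPKM in irr. Both were called there too (3.64 ± 0.16 and -4.73 ± 0.29), with the groups far apart. CYP71A12 differed by 3.86 ± 0.64 with water and 3.96 ± 0.64 with Pep1, and CYP82C2 by 3.01 ± 0.80 (adjusted p = 0.0579) and 6.12 ± 0.80. MYB122 was at 0.0508, 0 and 0.184 FPKM in wild type and at 1.69, 0.167 and 1.26 FPKM in irr with water (0.84 ± 0.34, adjusted p = 0.178). The root hair and extensin genes that were lower in irr with Pep1 were not called with water. RHS13 stood at 2.43, 0.768 and 2.76 FPKM in wild type and at 4.19, 2.82 and 2.70 FPKM in irr (0.56 ± 0.32, adjusted p = 0.329) and HRGP1 at 2.88, 1.27 and 3.73 FPKM in wild type and at 4.2, 3.48 and 2.0 FPKM in irr (0.25 ± 0.37, adjusted p = 0.734). The ER body genes PYK10 and NAI1 had differences of -0.69 ± 0.22 and -0.72 ± 0.19 with water (adjusted p = 0.0963 and 0.0530).

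**Figure D5:**
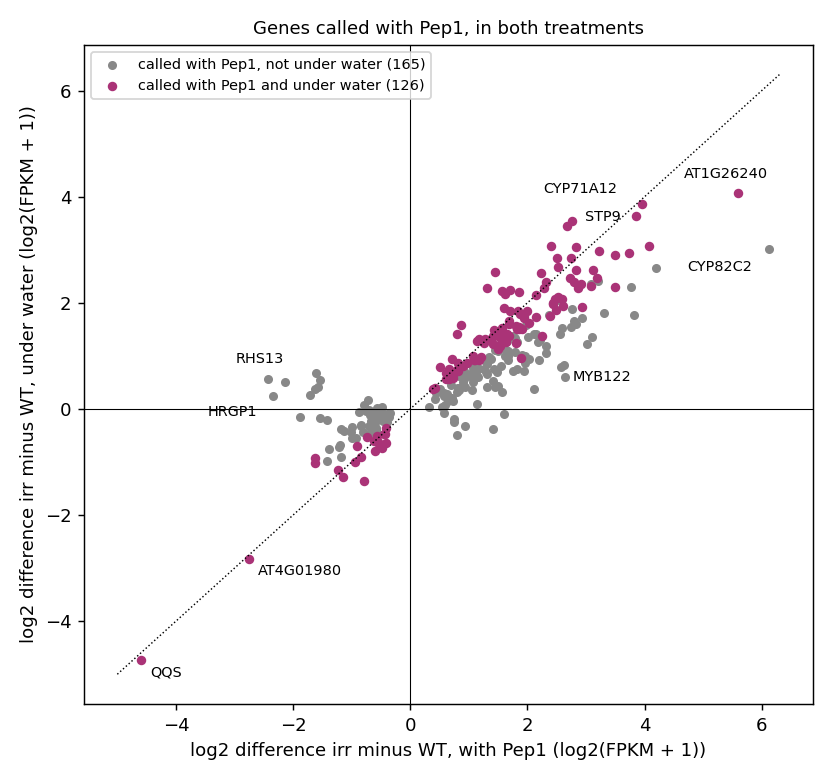
Difference between irr and wild type with water (y axis) against that with Pep1 (x axis), both on the log2 scale, for the 291 genes called with Pep1, of which 126 were also called with water (purple). The dotted line marks equal differences; QQS, AT4G01980 and STP9 lie near it, and RHS13 and HRGP1 lie left of 0 with Pep1 and above 0 with water.

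Whether the genotype difference itself differed between treatments was tested by the interaction. By limma 0 of 17485 genes passed, with 1168 (6.68%) at an unadjusted p under 0.05. The count was 7 without irr Pep1 replicate 3 and 1 without WT water replicate 3. The smallest p values belonged to RHS13 (-2.98 ± 0.45), AT4G24130 (1.27 ± 0.20), GATA4 (AT3G60530) (-1.14 ± 0.18), RUP1 (AT5G52250) (-0.72 ± 0.12) and BCCP2 (AT5G15530) (-0.81 ± 0.14), each with a limma adjusted p of 0.224. AT4G24130, of a family of unknown function, stood at 6.60, 6.72 and 5.72 FPKM in wild type and at 10.5, 12.5 and 12.1 FPKM in irr with Pep1 and was called there (0.79 ± 0.14, adjusted p = 0.0217), against -0.48 ± 0.14 with water. GATA4, a transcription factor, RUP1, a repressor of the ultraviolet-B receptor, and BCCP2, of fatty acid synthesis, were called higher with water and not with Pep1. No difference between the treatments is shown for any gene, RHS13, MYB122 and the ER body genes included.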

How the data were processed

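Total RNA of whole seedlings was sequenced as paired Illumina reads, per the labels' protocols. The values are FPKM computed and deposited by the authors, and no header names an aligner, counter, genome build or annotation, which are thus not given in the sources used here. FPKM hides depth, so totals were recovered from the steps between low values. In 300 genes tested, 100% gave whole counts in every library within 0.05. No strand setting is stated, so overlapping and antisense genes are uncertain.

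Genes with at least 1 FPKM in at least 3 of the 6 Pep1 libraries were tested on log2(FPKM + 1) with limma 3.58.1 in R 4.3.3. A mean was fitted per group over all 12 libraries (4 groups, 3 replicates each, 8 residual degrees of freedom), with a mean-variance trend and Benjamini-Hochberg adjustment at 0.05. For a single gene an exact permutation test of 3 against 3 cannot go below 0.1 two-sided and was not used. On simulated data for the Pep1 comparison with 17485 genes, 76% of 100 genes changed 2-fold and 97% of 100 changed 4-fold were called, and 4.95% of all 182 calls were unchanged genes. The changed genes had a mean of at least 5 FPKM, and each gene had the same spread in every group. In the data the median SD with Pep1 was 0.184 in irr and 0.119 in wild type. These shares therefore check the procedure and do not give the power or the false calls of the real comparison.

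Members and lists were chosen with earlier results of these data known. The 29 lists hold 495 entries, of which 102 were not tested. The 13 families were chosen after the values were seen. The rule for named genes took the 12 called genes in each direction with the largest difference, a mean of 2 FPKM or more and groups apart, the 8 smallest p, up to 4 called members of each list (or the 2 most abundant), the 5 smallest interaction p and the 6 with the largest differences with both treatments. Other genes were named after their values were seen. Symbols and products come from the RefSeq gene table, which matched 31912 identifiers. No sequence is shown. Alternatives changed the pseudocount, filter, scaling, block, trend, weights and libraries used.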

Additional observations from a re-analysis of the deposited data

How the results depend on the processing

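Of 847 values of the named genes' difference with Pep1 under 10 other settings 92 no longer passed the threshold and 12 newly passed it, and of 1032 values from leaving out 1 library 193 and 12 did. The sign turned, or the value went to 0, in 6 and 15 of them, in 11 genes, 0 of which were called in either fit. With library quality weights these were AT3G23900 at 0.0283 (from -0.0403), RPP4 at 0.0296 (from -0.0374), AOC2 at 0.0742 (from -0.0657) and NIA1 at 0.0812 (from -0.0876), and with quantile normalization LHCB1.3 at 0 (from -0.255) and LHCB1.1 at 0.0809 (from -0.125). Leaving out 1 library gave differences of -0.0894 to 0.0213 for AT3G23900, -0.0652 to 0.00559 for RUP1, -0.103 to 0.0113 for RPP4, -0.196 to 0.129 for AOC2, -0.195 to 0.0567 for BCAT3, -0.152 to 0.120 for HY5, -0.444 to 0.187 for NRT1.5, -0.338 to 0.108 for LHCB1.1, -0.317 to 0.0609 for KN and -0.237 to 0.0874 for NIA1. The count of called genes, 291, went to 139 with no filter, 168 with a mean of at least 5 FPKM, 485 with quantile normalization, 1803 with library quality weights and 22 in a fit of the 6 libraries alone. The genes higher in irr, 215, went to 98, 131, 356, 1275 and 15 under these settings, and the genes lower, 76, to 41, 37, 129, 528 and 7. Under the replicate block (library number as a term) 82 were called, 62 higher and 20 lower, 79 of them among the 291, and 379 with water. The numbers were not taken as pairs, since deviations of same-numbered libraries correlated at 0.0273, 0.140 and 0.213 with Pep1 and at -0.062, -0.0337 and 0.0482 with water, across genes, although 5 of 6 Pep1 libraries correlated best with their own number. The count with water, 706, was 466 at a pseudocount of 5 and 267 with no filter, and the interaction count, 0, was 1 at a pseudocount of 0.1. Leaving out 1 library gave 25 to 1601 calls with Pep1 (19 to 1304 higher, 6 to 297 lower), 44 to 1396 with water and 0 to 7 for the interaction. Where that left 1 group with fewer libraries, its spread was taken from all groups. Other settings kept the counts with Pep1 within 1.5 times, at 257 with a pseudocount of 0.1, 216 with 5, 398 with equal library medians and 247 with no trend. Equal medians and quantile normalization moved the median of all genes from -0.03 to -0.07 and -0.06. The cause of these moves was not tested. The interaction has no fit in 6 libraries, and the promoter search was not run. Counting error is largest for genes near 1 FPKM.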

Other observations

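Other families were counted by product name after the values were seen, and the counts describe the calls alone. Over all genes tested 1.23% were called higher and 0.435% lower. With Pep1, 3 of 37 lectin receptor kinase genes, which encode sensors at the cell surface, were higher in irr (median difference 0.35). So were 3 of 15 phloem protein 2 genes (median 0.21) and 5 of 102 leucine-rich repeat kinase genes (median -0.005). Leaving out 1 library gave 0 to 13, 0 to 4 and 1 to 14 calls in these families, the highest without irr Pep1 replicate 3 and the lowest without other Pep1 libraries. Of 123 cytochrome P450 genes 4 were higher and 2 lower (1 to 16 and 0 to 9 when 1 library was left out). Of 14 jacalin-type lectin genes 2 were lower (median -0.32, 0 to 4 when 1 library was left out). The 309 ribosomal protein genes tested had a median of -0.20, with 2 called lower (0 to 3 when 1 library was left out). In 85 of the 309 all irr values lay below wild type, beside 12.9% of all genes tested.

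Called genes lay on all 5 chromosomes, at 1.61% of genes tested on chromosome 1, 1.41% on 2, 1.98% on 3, 1.90% on 4 and 1.48% on 5. In the order of tested genes there were 12 pairs of neighbours called in the same direction, 24 genes in all, and 0 runs of 3 or more. Among the pairs were AT1G26240 with AT1G26250, AT3G54580 with HRGP1, and FLOT1 with AT5G25260, which are similar copies.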
